A study of Mus musculus with 12 samples.

Results

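The 10 genes described here, Lrrtm4, Negr1, Sema3d, Nefm, Ecm1, Efemp1, Tgm2, Il33, Ngp and Ppargc1a, were selected on their array values for large gains in gonads of Cbx2 knockout (KO) mouse embryos over gonads of wild-type (WT) embryos in XX and XY animals. Ngp is the exception in XY, where its gain was 0.92 ± 0.46 (SE) and the KO and WT arrays overlapped. They are 10 of 18193 genes measured, and 21 of the 45037 probe sets on the array that do not serve as controls were assigned to them alone. The KO minus WT differences therefore chose the genes and are given as a description without a test. All values are log2 array signals, so a difference of 1 is a doubling, and each gene is read from its probe set with the highest mean unless stated.

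Gonads were taken at E11.5, a stage when XX and XY gonads still look alike. The 4 groups, with 3 arrays each, were KO XX and KO XY gonads and, as their controls, WT XX and WT XY gonads. KO embryos came from crosses of heterozygous parents, and the stage was set by counting tail somites. Gonadal cells were cut by laser from 30 μm hematoxylin-stained frozen sections, guided by GATA4 staining and morphology. Each array holds RNA pooled from 2 or 3 embryos, of which 15 ng was amplified in consecutive rounds before labelling, so the spread within a group is that between pools. The sources used here name neither strain nor litter nor the part of Cbx2 that the allele removes.

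Cbx2 encodes a chromodomain subunit of the Polycomb repressive complexes, which hold developmental genes silent in cells that should not use them. In mice, loss of Cbx2 impairs gonad growth and can cause XY animals to develop as females. The 10 genes belong to no single pathway. Lrrtm4 and Negr1 encode cell-surface adhesion proteins known from synapses and neurites, Sema3d a secreted guidance cue, and Nefm a neuronal intermediate filament. Ecm1, Efemp1 and Tgm2 act in the extracellular matrix, Il33 encodes an alarm cytokine, Ngp a protein of neutrophil granules, and Ppargc1a a transcriptional coactivator of mitochondrial genes.

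Xist, a noncoding transcript of the silenced X, followed the sex labels: it was lower in XY than in XX gonads by a log2 change of -6.85 ± 0.11 (SE) in KO (adjusted p = 1.53e-14) and of -6.61 ± 0.11 in WT (adjusted p = 2.53e-14, limma). The Cbx2 signal was higher in KO than in WT, by 0.74 ± 0.12 in XX (adjusted p = 0.000645) and 0.52 ± 0.12 in XY (adjusted p = 0.00869), and since the deleted part is not known the probe set does not check the genotype. One descriptive field of the WT arrays names the KO XX group, so genotypes were taken from the titles and the genotype field. Gonadal markers were present, with Wt1 at mean levels of 10.93 in KO XX, 11.01 in KO XY, 11.05 in WT XX and 11.18 in WT XY gonads. Of the other gonadal regulators, Nr5a1 was lower in KO, at -2.04 ± 0.16 in XX (adjusted p = 1.72e-06) and -2.35 ± 0.16 in XY (adjusted p = 3.61e-07), as was Gata4, the gene whose protein guided the cutting, at -1.41 ± 0.16 (adjusted p = 4.23e-05) and -1.49 ± 0.16 (adjusted p = 2.29e-05). The arrays correlated with their own group at 0.988 to 0.997, lowest for WT XX replicate 1. The signal of Gapdh probe sets at the 3' end exceeded that at the 5' end by 3.81 to 4.23 in KO XX, 4.78 to 5.0 in KO XY, 3.83 to 4.72 in WT XX and 3.89 to 4.57 in WT XY gonads, and it was higher on every KO XY array than on any other array. That difference is also used as a covariate, an alternative added after seeing the data.

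Sequence upstream of the start was available from RefSeq (build GRCm38.p6) for 8 of the 10 genes, as 10 windows of 250 bases. Nefm and Tgm2 had no window, and Lrrtm4 and Il33 had 2 each. Bases past the start were not counted, so the CpG content there is not described. Polycomb complexes are known to occupy CpG-rich starts, so CpG content is given. The ratio of observed to expected CpG was above the median of 0.61 over 18109 windows of array genes in 1 of the 10 windows, that of Negr1. The windows below carry every CG in capitals and show the lowest ratio (Ecm1), the genes with the largest gains that have CpG-poor starts (the first windows of Lrrtm4 and Il33), and the CpG-rich exception (Negr1). They lie at chr3:95739570-95739819 on the minus strand, chr6:80018627-80018876, chr19:29924863-29925112 and chr3:156561544-156561793 on the plus strand.
Ecm1: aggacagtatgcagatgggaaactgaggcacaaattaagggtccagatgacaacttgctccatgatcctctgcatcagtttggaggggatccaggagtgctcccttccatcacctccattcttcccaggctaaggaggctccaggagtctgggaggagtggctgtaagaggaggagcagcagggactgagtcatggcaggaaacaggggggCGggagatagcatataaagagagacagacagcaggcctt
Lrrtm4: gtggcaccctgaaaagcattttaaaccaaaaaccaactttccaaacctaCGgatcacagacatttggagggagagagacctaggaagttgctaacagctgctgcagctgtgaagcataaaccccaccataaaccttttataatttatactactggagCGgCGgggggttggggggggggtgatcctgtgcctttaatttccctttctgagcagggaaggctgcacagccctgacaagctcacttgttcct
Il33: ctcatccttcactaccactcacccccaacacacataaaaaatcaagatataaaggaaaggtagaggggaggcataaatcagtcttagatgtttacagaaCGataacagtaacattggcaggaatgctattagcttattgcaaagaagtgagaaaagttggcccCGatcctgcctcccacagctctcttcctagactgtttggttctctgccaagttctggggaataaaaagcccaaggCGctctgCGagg
Negr1: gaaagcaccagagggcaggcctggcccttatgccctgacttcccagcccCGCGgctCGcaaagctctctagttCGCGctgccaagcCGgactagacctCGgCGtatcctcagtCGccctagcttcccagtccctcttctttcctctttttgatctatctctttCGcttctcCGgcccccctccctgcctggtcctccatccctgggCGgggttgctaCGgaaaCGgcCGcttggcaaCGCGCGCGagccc
The Ecm1 window holds 1 CpG and a ratio of 0.06, at percentile 3.8 of all windows, against 3 CpG and a ratio of 0.20 for Lrrtm4 (percentile 16.1), 4 and 0.31 for Il33 (percentile 26.3), and 19 and 0.80 for Negr1 (percentile 70.9). Both strands were searched for AGATAA and also TGATAA (motifs of GATA factors), for AAGGTCA (bound by Nr5a1), for CCATTGT (SOX factors), for TGACTCA (AP-1) and for CACGTG (the E-box), none of which contains another. Only TGACTCA matched, in Ecm1 at 64 bases upstream. Any of the motifs was found in 25.7% of all windows and TGACTCA in 3.96%, so 1 window of 10 is a low count and is given as a description of these letters alone.

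**Figure D1:**
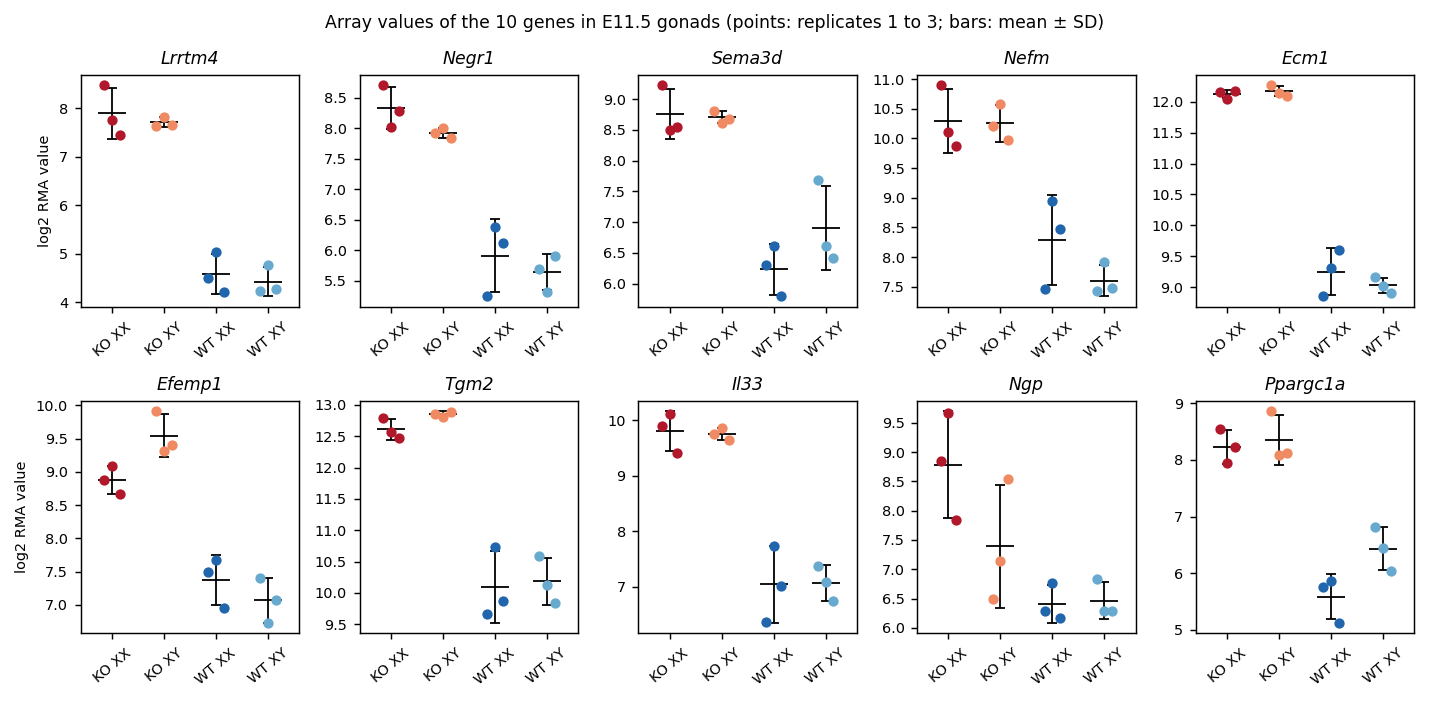
Log2 array values of the 10 genes, 1 panel each with its own axis range. Points are the 3 arrays of each group, KO left of WT, and bars are means ± SD. In every panel but that of Ngp, where KO XY reached down to 6.49, all KO arrays lie above all WT arrays.

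Among the cell-surface genes, Lrrtm4 showed the highest gain of all genes in both sexes. Lrrtm4, a leucine-rich repeat protein of the postsynaptic membrane, had log2 values of 8.48, 7.75 and 7.46 in KO XX and 7.64, 7.83 and 7.66 in KO XY gonads, against 4.49, 5.03 and 4.21 in WT XX and 4.23, 4.77 and 4.26 in WT XY gonads. All 6 KO arrays were far above all 6 WT arrays. The gain was 3.32 ± 0.24 (SE) in XX and 3.29 ± 0.24 in XY. All 6 WT values lay below 5.92, the median of all probe sets, and whether they were above background was not tested, so the gains are not given as folds.

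Negr1 encodes a lipid-anchored immunoglobulin protein of the IgLON family that shapes neurite outgrowth. Its values were 8.71, 8.03 and 8.28 in KO XX and 7.93, 8.0 and 7.84 in KO XY gonads, against 5.24, 6.38 and 6.11 in WT XX and 5.69, 5.32 and 5.9 in WT XY gonads. The KO arrays again did not overlap the WT arrays, and WT XX spread more widely than the other groups. Negr1 gained 2.43 ± 0.25 in XX and 2.29 ± 0.25 in XY, ranks 9 and 15 of all genes.

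Sema3d, a secreted class 3 semaphorin that repels or steers growing axons and migrating cells, read 9.23, 8.50 and 8.55 in KO XX and 8.81, 8.62 and 8.68 in KO XY gonads, against 6.30, 6.61 and 5.79 in WT XX and 7.69, 6.61 and 6.42 in WT XY gonads. The KO values were alike in both sexes, and WT XY replicate 1 came nearest to them. The gains were 2.53 ± 0.29 in XX (rank 6) and 1.79 ± 0.29 in XY (rank 41).

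Nefm, the medium neurofilament subunit of neuronal axons, had values of 10.90, 10.11 and 9.87 in KO XX and 10.21, 10.58 and 9.97 in KO XY gonads, against 7.46, 8.94 and 8.47 in WT XX and 7.42, 7.91 and 7.48 in WT XY gonads. No KO array fell below a WT array, and the WT XX arrays were the most scattered. Its gain was 2.0 ± 0.32 in XX (rank 26) and 2.65 ± 0.32 in XY (rank 6). In these bulk samples a higher signal from more cells of a type and one from more RNA per cell cannot be told apart.

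The 3 matrix genes were higher on every KO array than on any WT array. Ecm1, a secreted matrix glycoprotein, read 12.16, 12.05 and 12.17 in KO XX and 12.27, 12.15 and 12.10 in KO XY gonads, against 8.85, 9.31 and 9.60 in WT XX and 9.16, 9.02 and 8.91 in WT XY gonads. All 6 KO arrays lay within a narrow band. Ecm1 had the smallest standard errors of the 10 genes, with gains of 2.88 ± 0.16 in XX and 3.14 ± 0.16 in XY (7.34-fold and 8.84-fold, rank 2 in both).

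Efemp1 encodes fibulin-3, a glycoprotein of basement membranes and elastic tissue. It had values of 8.88, 9.09 and 8.67 in KO XX and 9.91, 9.31 and 9.41 in KO XY gonads, against 7.49, 7.67 and 6.95 in WT XX and 7.40, 6.73 and 7.07 in WT XY gonads. Here KO XY arrays were all above KO XX arrays. The gains were 1.51 ± 0.21 in XX (rank 79) and 2.48 ± 0.21 in XY (rank 8).

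Tgm2, the enzyme that crosslinks matrix proteins through glutamine and lysine residues, read 12.79, 12.57 and 12.47 in KO XX and 12.86, 12.80 and 12.89 in KO XY gonads, against 9.67, 10.74 and 9.87 in WT XX and 10.59, 10.13 and 9.84 in WT XY gonads. The groups did not overlap. Tgm2 gained 2.52 ± 0.23 in XX (rank 7) and 2.66 ± 0.23 in XY (rank 5).

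Il33 encodes a nuclear cytokine released from damaged cells that signals through the receptor chains Il1rl1 and Il1rap. Its values were 9.90, 10.11 and 9.42 in KO XX and 9.76, 9.86 and 9.65 in KO XY gonads, against 6.36, 7.74 and 7.02 in WT XX and 7.38, 7.08 and 6.74 in WT XY gonads. WT XX replicates 1 and 2 were the lowest and the highest WT arrays. Il33 ranked 3 in both sexes, with gains of 2.77 ± 0.27 in XX and 2.69 ± 0.27 in XY.

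Ngp, the neutrophilic granule protein, is stored in granules of maturing neutrophils. It read 8.85, 9.66 and 7.84 in KO XX and 6.49, 7.14 and 8.54 in KO XY gonads, against 6.28, 6.77 and 6.17 in WT XX and 6.83, 6.29 and 6.28 in WT XY gonads. KO XX was above WT XX throughout, whereas KO XY replicate 1 lay below WT XY replicate 1. The gain was 2.37 ± 0.46 in XX (rank 10) and 0.92 ± 0.46 in XY (rank 378). Without KO XY replicate 3 the XY gain was 0.34, and over all arrays left out in turn it ran from 0.34 to 1.37 in XY and from 1.93 to 2.85 in XX.

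Ppargc1a is the coactivator that drives mitochondrial biogenesis and oxidative metabolism in muscle and brown fat. It had values of 8.54, 7.94 and 8.23 in KO XX and 8.86, 8.08 and 8.12 in KO XY gonads, against 5.76, 5.85 and 5.12 in WT XX and 6.81, 6.45 and 6.04 in WT XY gonads. Every WT XY array was above every WT XX array, and 13.2% of all genes showed such a gap between the WT sexes in one direction or the other. The gain was 2.66 ± 0.25 in XX (rank 5) and 1.92 ± 0.25 in XY (rank 35).

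Over the 10 genes the median gain was 2.52 in XX and 2.56 in XY, against -0.02 and 0.01 over all genes. KO and WT arrays did not overlap for 10 of 10 genes in XX and 9 of 10 in XY, and for 9 in both sexes. Among all genes, KO arrays were above WT arrays without overlap for 14.1% in XX, 18.9% in XY and 6.22% in both, and nothing is read from this because the same values chose the genes. Of the 10, 4 ranked among the 10 highest gains in both sexes. Krt19, a keratin of mesothelial and ductal epithelia that is no member, also ranked there, at 4 in XX and 10 in XY. At the edge stood Ptger4, which encodes a prostaglandin receptor, at rank 11 in both, with gains of 2.31 in XX and 2.41 in XY.

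**Figure D2:**
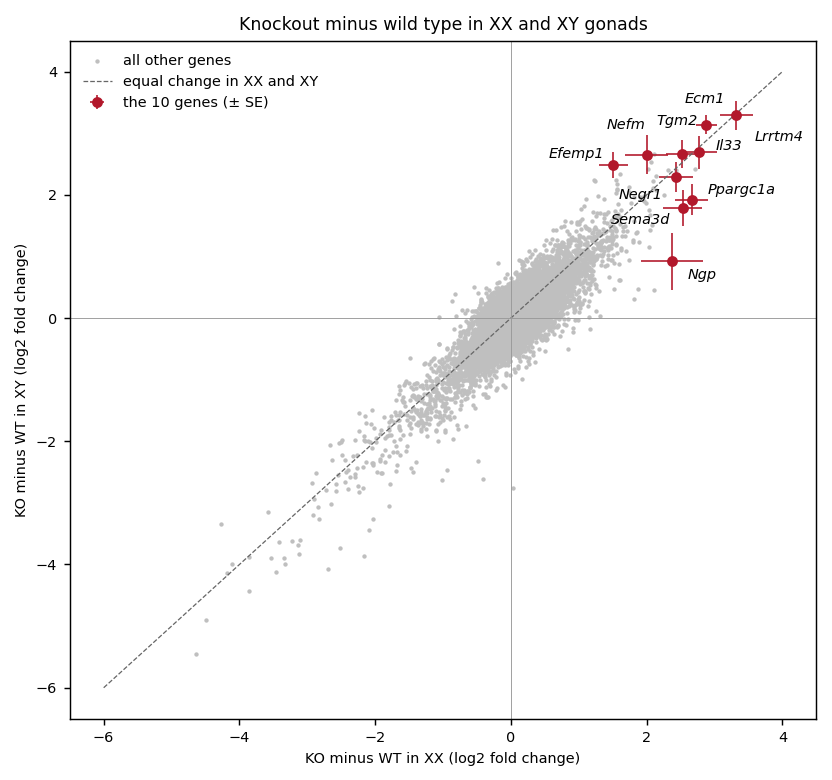
KO minus WT log2 fold change in XX (horizontal) against XY (vertical) for all genes in grey and the 10 genes in red with SE bars. The dashed line marks equal change. Lrrtm4 is farthest out at 3.32 and 3.29, Efemp1 lies above the line at 1.51 and 2.48, and Ngp lies below it at 2.37 and 0.92.

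Of these genes 6 were read by 1 probe set and 4 by several. All 21 probe sets had a positive KO minus WT difference in both sexes, and 16 exceeded 1 in both. For Lrrtm4 the probe set 1437214_at gave the values above, while 1455937_at differed by 0.21 ± 0.18 in XX and 0.25 ± 0.18 in XY, with KO arrays at 3.18 to 4.10 and WT arrays at 3.28 to 3.55 overlapping. Sema3d had the same split: 1453148_at differed by 0.43 ± 0.18 in XX and 0.39 ± 0.18 in XY, with overlapping arrays. Averaging all probe sets of a gene gave Lrrtm4 gains of 1.76 in XX and 1.77 in XY, and Sema3d gains of 1.48 and 1.09. Which transcript ends these probe sets read was not tested.

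Of the 6 Tgm2 probe sets, 4 gained 2.34 to 2.81 and the other 2, 1426004_a_at and 1438942_x_at, gained 0.46 to 0.66, all without overlap between KO and WT arrays. All 5 Ppargc1a probe sets gained 1.53 to 3.0 in XX and 1.14 to 2.08 in XY, each without overlap. Of the 21 probe sets, 18 had every KO array above every WT array, and the others were those of Ngp and the weak ones of Lrrtm4 and Sema3d. The same shares over all probe sets were not computed. Nothing is read from the counts over the 21 probe sets, because the KO minus WT differences chose the genes.

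**Figure D3:**
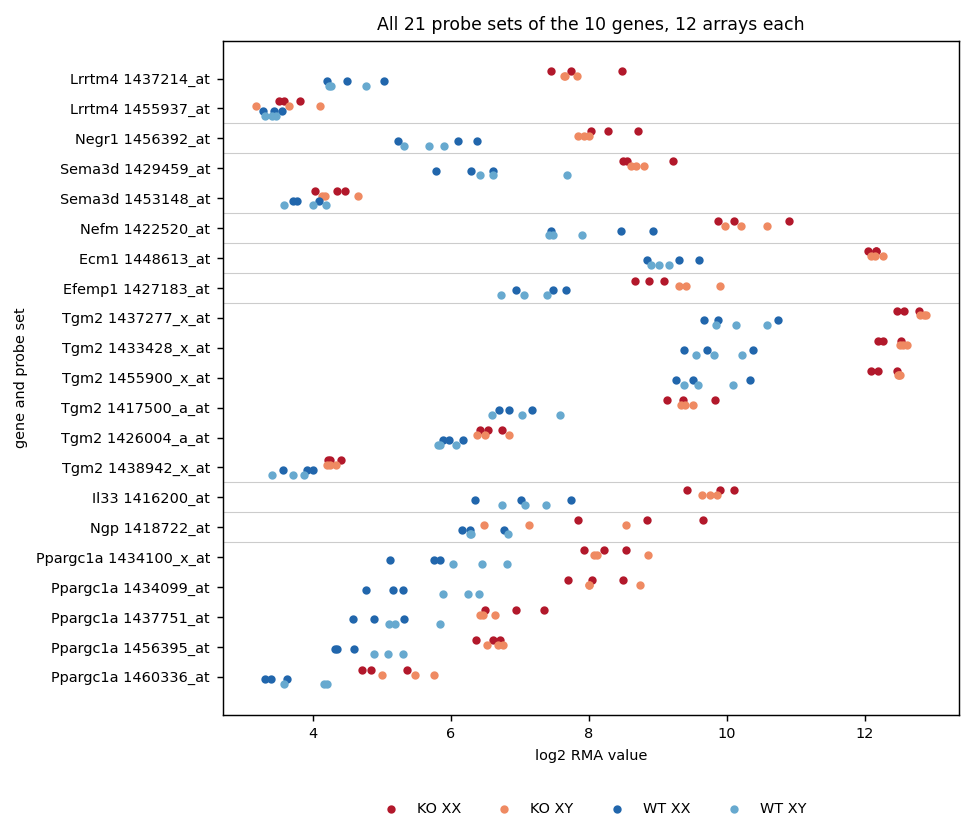
Log2 values of all 21 probe sets of the 10 genes, 1 line per probe set and 1 point per array, coloured by genotype and sex. The Ppargc1a probe sets and 4 of the 6 Tgm2 probe sets separate KO from WT widely, while 1455937_at of Lrrtm4 lies at 3.18 to 4.10 in KO and overlaps WT.

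Whether the sexes differed within a genotype was tested with limma over all genes. The rule did not choose genes on these contrasts, but it used the same array values. A gene chosen mainly for its gain in XX or in XY can therefore lean toward a sex difference, and the member counts carry that limit. Between KO XY and KO XX gonads, 0 of the 10 genes passed an adjusted p of 0.05, against 0.033% of all genes, and 2 had an unadjusted p under 0.05, against 10% of all genes. These were Efemp1, higher in XY by 0.66 ± 0.21 (adjusted p = 0.431), and Ngp, at -1.39 ± 0.46 (adjusted p = 0.442). Those differences did not pass, although KO XY arrays of Efemp1 did not overlap KO XX arrays, as was true of 17.1% of all genes in one direction or the other. Ecm1 differed by 0.04 (adjusted p = 0.931) and Il33 by -0.05 (adjusted p = 0.954).

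Between WT XY and WT XX gonads, 0 of 10 passed as well, against 0.0605% of all genes, and 2 had an unadjusted p under 0.05, against 10.4% of all genes. Ppargc1a was the widest at 0.86 ± 0.25 (adjusted p = 0.459), and its 5 probe sets differed by 0.45 to 1.10 in the same direction. Sema3d stood at 0.67 ± 0.29 (adjusted p = 0.462) and Nefm at -0.69 ± 0.32 (adjusted p = 0.480). Leaving out WT XX replicate 1, the array least like its group, let 3 of the 10 pass, where 1876 of all 18193 genes (10.3%) passed, against 11 with every array kept. These were Ppargc1a at 0.95 ± 0.28 (adjusted p = 0.0426), Nefm at -1.10 ± 0.27 (adjusted p = 0.0188) and Ecm1 at -0.43 ± 0.13 (adjusted p = 0.0454). Over all alternatives run the adjusted p ranged from 0.0426 to 0.948 for Ppargc1a, 0.0188 to 0.948 for Nefm and 0.0454 to 0.991 for Ecm1.

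The gain in XY minus that in XX was 0.97 ± 0.30 for Efemp1, -1.45 ± 0.64 for Ngp, -0.74 ± 0.36 for Ppargc1a and -0.73 ± 0.41 for Sema3d. The genes were picked on those same gains, so these differences are a description without a test. With the Gapdh difference between 3' and 5' probe sets in the fit, the XY gain was 1.84 ± 0.37 for Nefm, 2.83 ± 0.20 for Ecm1, 2.80 ± 0.29 for Efemp1 and 2.25 ± 0.37 for Il33.

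The relatives of the 10 genes were set beside them in lists that leave the members out, counting genes past an adjusted p of 0.05. Each was refitted under 22 alternatives, or 21 where the filter on low values removed it. Over all genes 8.3% were higher and 5.4% lower in KO in XX, and 6.56% higher and 6.75% lower in XY. Of 23 other synaptic adhesion genes 3 rose and 3 fell in XX, and 6 rose and 2 fell in XY, with median changes of 0.13 and 0.19. In both sexes 3 rose and 2 fell. Flrt2, an adhesion ligand of latrophilins and Unc5 receptors, rose by 1.36 ± 0.19 in XX (adjusted p = 0.000184) and 1.26 ± 0.19 in XY (adjusted p = 0.00032). Flrt3 rose by 0.82 ± 0.18 (adjusted p = 0.00575) and 1.11 ± 0.18 (adjusted p = 0.00053), and Slitrk4 by 0.73 ± 0.14 (adjusted p = 0.00231) and 0.59 ± 0.14 (adjusted p = 0.0096). Slitrk1, another leucine-rich repeat protein, changed the other way, by -2.66 ± 0.24 in XX (adjusted p = 4.79e-06) and -3.02 ± 0.24 in XY (adjusted p = 1.3e-06). Of the closest relatives of Lrrtm4, 2 passed in neither sex: Lrrtm2 differed by 0.05 and -0.04 in XX and XY, and Lrrtm3 by -0.18 and -0.03, while Lrrtm1 rose in XY, by 1.16 ± 0.31 (adjusted p = 0.0219, passing under 16 of 21 alternatives). The XX count of genes lower dropped to 1 without KO XX replicate 1 or 3, WT XX replicate 2 or WT XY replicate 2, and with the Gapdh measure in the fit the XY count of genes higher was 0 and the adjusted p of Flrt2 in XY was 0.0583.

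Of the 4 other IgLON genes Ntm rose in XX by 0.53 ± 0.14 (adjusted p = 0.0201) and Lsamp in XY by 0.82 ± 0.16 (adjusted p = 0.00268), and the list median was 0.47 in XX and 0.33 in XY. Ntm passed under 18 of 22 alternatives, with an adjusted p of up to 0.0652. The XX count of 1 became 0 without KO XX replicate 2 or 3 or WT XX replicate 3, and the XY count became 2 without KO XY replicate 2. Among 13 other genes of class 3 semaphorin signalling, 2 rose and 1 fell in XX, and 3 rose and 1 fell in XY. The ligands Sema3a, at 1.20 ± 0.15 in XX (adjusted p = 9.57e-05) and 0.77 ± 0.15 in XY (adjusted p = 0.00332), and Sema3c, at 1.01 ± 0.13 (adjusted p = 0.000102) and 0.88 ± 0.13 (adjusted p = 0.0003), rose in both. Of their receptors, Nrp1 differed by -0.18 and -0.06 and Nrp2 by -0.26 and -0.24, none past the threshold, while Plxna2, a plexin coreceptor, differed by 0.38 ± 0.12 in XX (adjusted p = 0.0551) and rose by 0.54 ± 0.12 in XY (adjusted p = 0.00842, passing under 19 of 22 alternatives). Plxnd1, an endothelial semaphorin receptor, fell, at -1.25 ± 0.19 in XX (adjusted p = 0.000436) and -1.54 ± 0.19 in XY (adjusted p = 6.72e-05). Without WT XX replicate 1 the XX count of genes lower was 2.

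Nefm lies in the neuronal list, of which 4 of 16 other genes rose and 1 fell in each sex, with medians of 0.03 in XX and 0.13 in XY. Nefl, the light neurofilament subunit, had values of 9.41, 8.96 and 8.92 in KO XX and 9.46, 9.31 and 9.11 in KO XY gonads, against 7.03, 7.85 and 7.19 in WT XX and 7.05, 7.23 and 7.49 in WT XY gonads. All KO arrays were above all WT arrays, and Nefl rose by 1.74 ± 0.20 in XX (adjusted p = 3.93e-05) and 2.04 ± 0.20 in XY (adjusted p = 8.54e-06). The heavy subunit Nefh differed by 0.08 and 0.02, the neuronal tubulin Tubb3 by 0.15 and -0.01 and peripherin (Prph) by -0.10 and -0.07, none past the threshold. Nefh lay at group means of 3.82 (WT XX) to 4.01 (KO XY) and Tubb3 at 3.28 (WT XX) to 3.47 (WT XY). These levels are below 5.92, the median of all probe sets, and whether they were above background was not tested. Gap43, a growth-cone protein, fell, at -1.45 ± 0.21 in XX (adjusted p = 0.000281) and -1.16 ± 0.21 in XY (adjusted p = 0.00162). The other genes that rose were Dcx in XX, by 0.74 ± 0.19 (adjusted p = 0.0204), Syt1 in XY, by 0.88 ± 0.13 (adjusted p = 0.000258), and 3 more. Snap25 rose by 0.70 ± 0.21 in XX (adjusted p = 0.0383) and in XY (adjusted p = 0.038). Its means were 3.96 in KO XX, 3.81 in KO XY, 3.26 in WT XX and 3.11 in WT XY gonads, also below the median of all probe sets. Stmn2 rose in XX by 0.89 ± 0.28 (adjusted p = 0.0478) and Stmn3 in XY by 0.44 ± 0.13 (adjusted p = 0.0418). The mean level of the list ran over 5.68 to 5.82 in KO XX, 5.82 to 5.84 in KO XY, 5.55 to 5.68 in WT XX and 5.55 to 5.60 in WT XY gonads, and its part in the Nefm values was not tested. The XX count of 4 was 2 without any 1 of the 3 KO XX, 3 WT XX and 3 WT XY arrays, and the XY count was 2 without KO XY replicate 3 or without 1 of WT XY replicates 2 and 3, with 2 genes lower without WT XY replicate 3, or with the Gapdh measure in the fit.

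Elastic fibre and fibulin genes, the relatives of Efemp1, were often higher in KO gonads: 12 of 19 rose in XX (8.3% of all genes) and 9 of 19 in XY (6.56%), 8 of them in both (4.58%), and none fell. The medians were 0.65 in XX and 0.34 in XY, against -0.02 and 0.01 over all genes. Fbln5, a fibulin of elastic fibres, rose by 1.55 ± 0.21 in XX (adjusted p = 0.000187) and 1.44 ± 0.21 in XY (adjusted p = 0.000327), and Fbln2 by 1.59 ± 0.16 (adjusted p = 1.14e-05) and 0.62 ± 0.16 (adjusted p = 0.0188). The fibrillin gene Fbn2 rose by 1.18 ± 0.11 (adjusted p = 7.04e-06) and 0.65 ± 0.11 (adjusted p = 0.000963), the TGF-beta binding protein gene Ltbp1 by 0.99 ± 0.13 (adjusted p = 9.19e-05) and 0.97 ± 0.13 (adjusted p = 9.26e-05), and the microfibril gene Mfap2 by 0.91 ± 0.11 (adjusted p = 7.96e-05) and 0.65 ± 0.11 (adjusted p = 0.00112). Fbln2 passed in XY under 16 of 22 alternatives, with an adjusted p of up to 0.15, and Fbn2 under 21 of 22, with up to 0.0544. With the Gapdh measure in the fit 5 genes rose in XY, and leaving out single arrays gave 9 to 11 in XX and 6 to 9 in XY. Of the 7 other transglutaminase genes, Tgm5 rose by 0.80 ± 0.17 in XX (adjusted p = 0.0047) and 0.86 ± 0.17 in XY (adjusted p = 0.00283), Tgm3 fell, at -1.80 ± 0.21 (adjusted p = 5.09e-05) and -1.69 ± 0.21 (adjusted p = 7.87e-05), and the rest did not pass. Tgm5 no longer passed in XY with the Gapdh measure (adjusted p = 0.202).

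Of 14 other genes of the interleukin 1 family and its signalling, only Il18, a cytokine matured by inflammasomes, rose, by 0.52 ± 0.11 in XX (adjusted p = 0.00542) and 0.90 ± 0.11 in XY (adjusted p = 6.74e-05), and none fell. The medians were -0.07 in XX and 0.06 in XY. The receptor chain Il1rap differed by 0.40 ± 0.15 (adjusted p = 0.0918) and -0.26 ± 0.15 (adjusted p = 0.291), and Il1rl1 was not analysed here. Without KO XX replicate 3 the XX count of genes higher was 3. Of 23 genes of the Ppargc1a network 2 rose and 1 fell in XX, and 1 rose and 2 fell in XY, with medians of 0.01 and -0.09. Esrrg, a nuclear receptor partner, rose by 0.54 ± 0.11 in XX (adjusted p = 0.00332) and 0.61 ± 0.11 in XY (adjusted p = 0.00126). Ppara, a lipid-sensing partner, fell, at -1.76 ± 0.22 (adjusted p = 7.57e-05) and -1.6 ± 0.22 (adjusted p = 0.000151), Ppargc1b differed by -0.30 ± 0.13 (adjusted p = 0.147) and -0.13 ± 0.13 (adjusted p = 0.607), and the mitochondrial factor Tfam differed by 0.05 and -0.15. Counts of this list rested on single arrays: in XX 1 gene rose without any 1 of KO XX replicates 2 and 3, the 3 KO XY arrays, WT XY replicate 3 and WT XX replicates 1 and 2, and 3 fell without WT XX replicate 3. In XY 3 rose without WT XX replicate 1 and 2 without WT XX replicate 2 or 3, and 1 fell without any 1 of the 3 KO XY arrays and WT XY replicates 1 and 3.

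**Figure D4:**
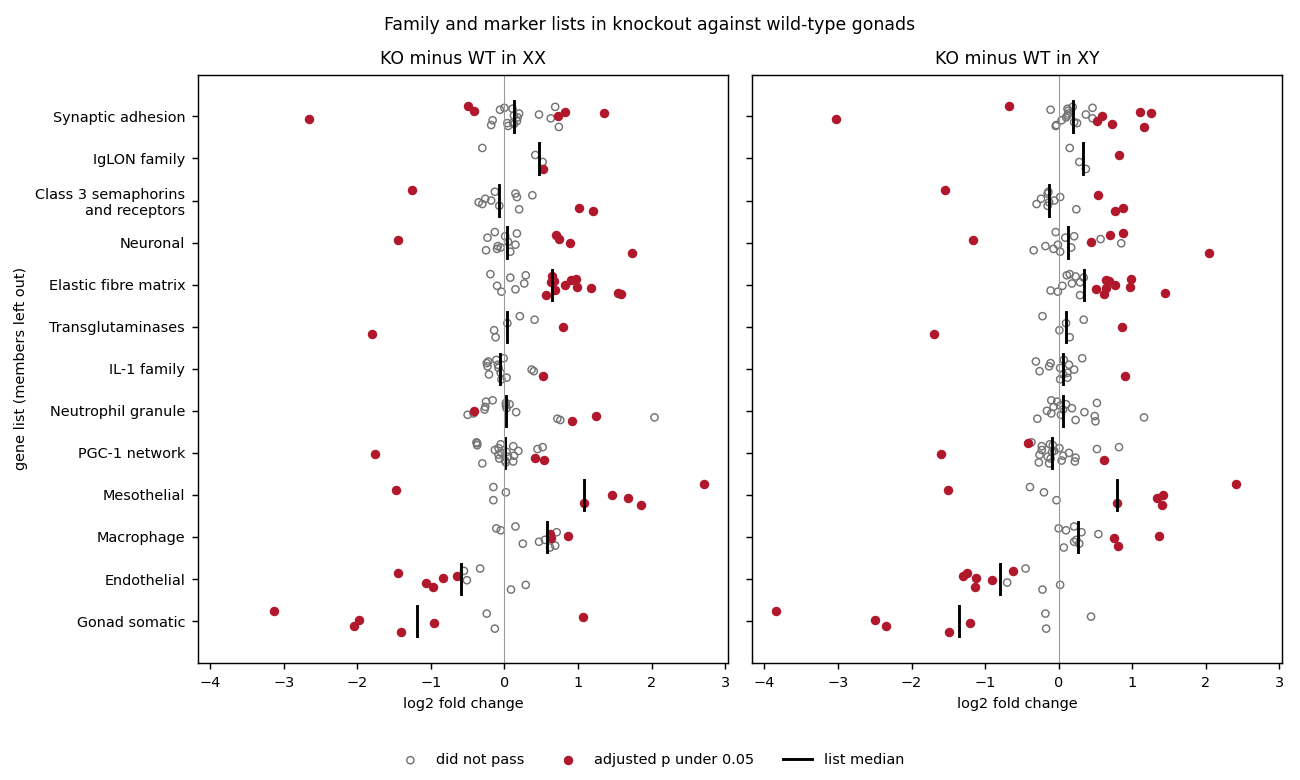
KO minus WT log2 fold change in XX (left) and XY (right) for genes of 13 family and marker lists with the 10 genes left out. Filled red points passed an adjusted p of 0.05, open points did not, and black bars are list medians. The mesothelial list has medians of 1.08 and 0.79, the elastic fibre list of 0.65 and 0.34 and the gonad somatic list of -1.18 and -1.35.

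Ngp was set beside 17 other neutrophil granule genes. In XX, 2 rose and 1 fell, and in XY 0 passed in limma while 2 had an unadjusted p under 0.05, with medians of 0.02 and 0.06. The calprotectin subunit gene S100a8 had values of 8.75, 8.63 and 7.88 in KO XX and 5.43, 7.41 and 7.85 in KO XY gonads, against 6.74, 7.51 and 4.90 in WT XX and 6.47, 4.65 and 6.10 in WT XY gonads. Its KO XX arrays were above all others, with KO XY replicate 3 just under the lowest of them, and the difference was 2.04 ± 0.66 in XX (adjusted p = 0.0558) and 1.16 ± 0.66 in XY (adjusted p = 0.301). Its partner S100a9 rose in XX by 1.25 ± 0.31 (adjusted p = 0.0141) and differed by 0.49 ± 0.31 in XY (adjusted p = 0.363). Camp, the cathelicidin gene and a relative of Ngp, rose in XX by 0.92 ± 0.25 (adjusted p = 0.0251) and differed by 0.50 ± 0.25 in XY (adjusted p = 0.235).

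Some other genes of the list had negative differences in XX. Mpo differed by -0.50 ± 0.32 in XX (adjusted p = 0.34) and Elane by -0.42 ± 0.14 (adjusted p = 0.0607), and Ctsg fell by 0.41 (adjusted p = 0.0177). Mmp8 stood at -0.27 (adjusted p = 0.174) and Cd177 at -0.26 (adjusted p = 0.173). Positive differences in XX that did not pass included Ltf at 0.76 ± 0.27 (adjusted p = 0.0879), Lcn2 at 0.72 ± 0.29 (adjusted p = 0.124) and Prtn3 at 0.16 ± 0.12 (adjusted p = 0.429). In XY Mpo differed by 0.03, Elane by -0.10 and Ctsg by -0.16, none past the threshold. The mean level of the list was 5.35 to 5.70 in KO XX, 5.13 to 5.56 in KO XY, 5.18 to 5.45 in WT XX and 5.11 to 5.29 in WT XY gonads. The neutrophil receptor genes Csf3r, at means of 4.39 in KO XX, 4.51 in KO XY, 4.64 in WT XX and 4.54 in WT XY gonads, and Cxcr2, at 4.37 in KO XX, 4.46 in KO XY, 4.53 in WT XX and 4.56 in WT XY gonads, were low in all groups and did not pass the threshold. The XX count of genes higher was 0 without KO XX replicate 2 or WT XX replicate 3 and 1 without KO XX replicate 1 or WT XX replicate 1, that of genes lower was 0 without KO XX replicate 1 or 3 or WT XX replicate 2 and 2 without KO XX replicate 2, and the XY count of genes higher was 2 without KO XY replicate 2. S100a9 passed in XX under 18 of 21 alternatives, with an adjusted p of up to 0.057, Camp under 17 of 22, with up to 0.111, and Ctsg under 17 of 21, with up to 0.0735. The part of neutrophils in the Ngp values was not tested.

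**Figure D5:**
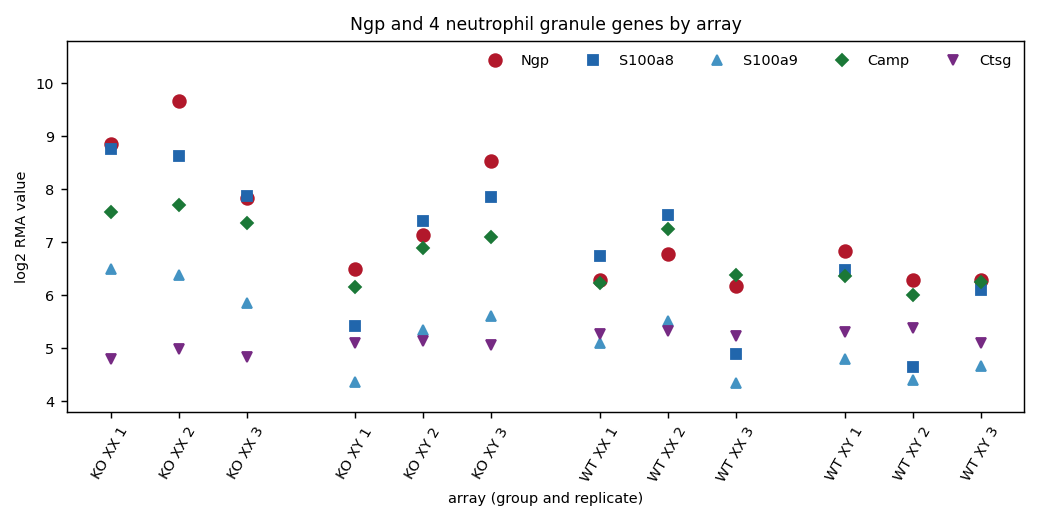
Log2 values of Ngp and the neutrophil granule genes S100a8, S100a9, Camp and Ctsg on each of the 12 arrays. Ngp, S100a8, S100a9 and Camp are high on the 3 KO XX arrays and spread widely over the KO XY arrays, where Ngp ranges from 6.49 to 8.54. S100a8, S100a9 and Camp spread similarly over the WT XX arrays, with SDs of 1.34, 0.59 and 0.54 there and 1.29, 0.66 and 0.49 in KO XY. Ctsg lies lower on the KO XX than on the WT XX arrays.

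Markers of other cells differed between KO and WT gonads in either direction, depending on the list. Of 9 mesothelial markers 5 rose and 1 fell in both sexes, with a mean level of 8.80 to 9.05 in KO XX and 8.83 to 8.90 in KO XY, against 8.10 to 8.17 in WT XX and 8.22 to 8.35 in WT XY gonads. Krt19 rose by 2.71 ± 0.14 in XX (adjusted p = 3.29e-08) and 2.41 ± 0.14 in XY (adjusted p = 4.38e-08), the uroplakin gene Upk1b by 1.86 ± 0.18 (adjusted p = 7.37e-06) and 1.40 ± 0.18 (adjusted p = 8.01e-05), and the transcription factor gene Bnc1 by 1.68 ± 0.17 (adjusted p = 1.35e-05) and 1.33 ± 0.17 (adjusted p = 9.26e-05). Mesothelin (Msln) differed by -0.15 and -0.03 at means of 3.8 in KO XX, 4.0 in KO XY, 3.95 in WT XX and 4.03 in WT XY gonads, and Krt8 fell, at -1.48 ± 0.17 (adjusted p = 3.02e-05) and -1.51 ± 0.17 (adjusted p = 2.3e-05). This count of 5 was the same with each array left out. Their part in the gains of the 10 genes was not tested.

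Of 12 macrophage markers 3 rose in each sex and none fell, with a mean level of 6.68 to 7.22 in KO XX and 6.74 to 6.93 in KO XY, against 6.24 to 6.55 in WT XX and 6.36 to 6.53 in WT XY gonads. The complement gene C1qb, with the largest change of the list, rose by 0.86 ± 0.26 in XX (adjusted p = 0.0419) and 1.36 ± 0.26 in XY (adjusted p = 0.0026). The others that rose were C1qa in both sexes, C1qc in XX and Csf1r in XY. Adgre1 differed by 0.25 in XX and 0.28 in XY, Cd68 by 0.47 and 0.21, Fcgr1 by -0.05 and 0.10 and Itgam by -0.11 and 0.00, none past the threshold. In XX C1qb passed under 7 of 22 alternatives, with an adjusted p of up to 0.176. No macrophage marker passed in XX without KO XX replicate 1 or WT XX replicate 3, and 1 passed in XY without either KO XY replicate 3 or else WT XY replicate 2, or with the Gapdh measure in the fit. Of 10 endothelial markers 5 were lower in XX and 6 in XY, and none rose. Among those lower were Sox17 at -1.44 ± 0.22 (adjusted p = 0.000437) and -1.25 ± 0.22 (adjusted p = 0.00127) and Emcn at -0.64 ± 0.18 (adjusted p = 0.0262) and -1.3 ± 0.18 (adjusted p = 0.000153). Others did not pass in either sex: Kdr differed by 0.29 in XX (adjusted p = 0.363) and 0.02 in XY (adjusted p = 0.967). Pecam1 differed by 0.09 (adjusted p = 0.837) and -0.22 (adjusted p = 0.609). The XX count of endothelial markers lower was 1 without KO XX replicate 2 or 3 or WT XX replicate 2 and 2 without WT XX replicate 1, and the XY count was 3 without KO XY replicate 2 or with the Gapdh measure. Of 9 germ cell markers 4 rose in XX and 1 in XY, with 1 in XX without KO XX replicate 1 and 2 without WT XX replicate 2 or 3. The XY count was 0 without any 1 of KO XX replicate 2, the 3 KO XY arrays and WT XY replicate 3, and 2 without WT XX replicate 1 or 3. Among 5 mesonephric markers Calb1 fell, at -2.09 ± 0.28 in XX (adjusted p = 0.000153) and -3.45 ± 0.28 in XY (adjusted p = 1.58e-06), and among 7 erythroid markers 0 passed in XX in limma, where 0 had an unadjusted p under 0.05, and Klf1 fell in XY, by 0.75 (adjusted p = 0.0482). Klf1 passed under 8 of 22 alternatives: no erythroid marker passed in XY without any 1 of KO XX replicates 2 and 3, KO XY replicates 1 and 2, WT XX replicate 3 and the 3 WT XY arrays, and 3 fell without KO XY replicate 3. Of 8 gonadal somatic markers 5 fell in both sexes. Against them Tcf21, a transcription factor gene named here after its values were seen, rose in XX by 1.07 ± 0.17 (adjusted p = 0.000556) and differed by 0.44 ± 0.17 in XY (adjusted p = 0.102). Emx2, a homeobox gene also picked with its values known, differed by -0.24 and -0.18.

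How single pools departed from the mean of their group is described here for the 10 genes. After removing each group's mean, 38 of 45 pairs among the 10 genes correlated above 0 over the 12 arrays, with a median Pearson r of 0.38 and a range from -0.23 (Ngp with Ppargc1a) to 0.87 (Tgm2 with Il33). These pairs share arrays and are given as a description. The same share over pairs of all genes was not computed, so the count is not read as a trait of these genes. WT XX replicate 2 was above its group's mean in 10 of 10 genes, by 0.43 on average, KO XX replicate 1 in 9 and WT XY replicate 1 in 8, while KO XX replicate 3 was above in 1. All 10 genes had a within-group SD above the median of 0.17 over all genes.

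Each gene's profile was also set against the mean of the others over the 12 arrays, groups included. This r was highest for Tgm2 at 0.99 and lowest for Ngp at 0.727, with the groups themselves shared by all. Among genes outside the 10, the profiles most like their mean were those of Col4a5 (r = 0.987), a basement membrane collagen gene, Plekhg1 (0.986), Krt19 (0.985), Col6a2 (0.984), a microfibrillar collagen gene, Adamts3 (0.981), a procollagen protease gene, Ror1 (0.980), a Wnt receptor gene, Itm2a (0.979), Unc5c (0.979), a netrin receptor gene, Ano1 (0.978), a chloride channel gene, and Cux2 (0.978), a homeobox gene. Their gains ran from 1.02 (Plekhg1) to 2.71 (Krt19) in XX and from 1.01 to 2.41 in XY for the same genes.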

How the data were processed

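Signals were measured on a mouse expression microarray of 45101 probe sets in 12 samples, 3 per group. The authors deposited values on a log2 scale, running from 2.4 to 15.0 with array medians of 5.88 to 5.94. RMA, Affymetrix Expression Console and affy are named per the submitters' processing notes, with versions not given in the sources used here, and no scanner files were used. Quantile normalization in RMA sets the arrays to one distribution, so a change of total RNA does not show, and precision is limited by the number of arrays.

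Of the probe sets, 64 were controls, 34945 carried 1 gene, 932 several and 9160 none in the platform annotation, and 34741 were matched to a current symbol. The probe set with the highest mean stood for each of 18193 genes. limma 3.58.1 in R 4.3.3 (lmFit, eBayes) fitted 4 group means with 8 residual degrees of freedom, and p-values were adjusted by Benjamini-Hochberg over all genes within each of 5 contrasts, with a threshold of 0.05. The smallest p of an exact permutation test of 3 arrays against 3 is 0.1, so single genes were not tested alone. The fit was also run on simulated data with known shifts, in which each gene had independent noise of the same spread on all arrays. That simulation held no outlying array and no group difference in 3' against 5' signal, so it does not cover those features of the data.

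The members and all gene lists were chosen with earlier results of these data known. Named genes were every member and, per list, some or all of the 4 genes with the smallest p in either KO against WT contrast. Also named were close family members and receptors, markers needed to give a cell type's level, and the 10 named genes most like the members by Pearson r. Labels give the groups the same replicate numbers but no shared source. Deviations from group means correlated from -0.212 to 0.279 between same-numbered arrays of different groups, above 0.1 in 5 of 18 pairs, so the numbers were not treated as pairs. Alternatives were another normalization, a filter on low values, other ways to choose probe sets, variance priors, array weights, fewer groups per fit, each array left out in turn and, added after seeing the data, the Gapdh difference between 3' and 5' probe sets as a covariate.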

Additional observations from a re-analysis of the deposited data

How the results depend on the processing

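The numbers of all genes past an adjusted p of 0.05 (limma) were 2493 for KO against WT in XX, 2421 in XY, 6 for XY against XX in KO, 11 in WT and 1 for the difference between the KO effects. Fitting only the groups compared gave 1532 in XX, 3802 in XY and 7 for the sexes in WT. Array weights gave 4406 in XY, 1191 for the sexes in WT and 3 for the difference between the KO effects, and the filter on low values gave 7 for the sexes in WT. With the Gapdh covariate, chosen after seeing the data, the counts were 3175 in XX, 780 in XY, 11 for the sexes in KO and 0 for the difference between the KO effects, where 1266 genes had an unadjusted p under 0.05 in limma. Leaving out 1 array at a time gave 1881 to 2440 in XX, 1598 to 3397 in XY, 5 to 9 for the sexes in KO, 7 to 1876 for the sexes in WT and 1 to 10 for the difference between the KO effects. The highest XY, WT and difference counts came without WT XX replicate 1, and the lowest XY count, 1598, without WT XY replicate 1. The cause was not tested.

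The replicate number as a block, which the labels do not tie to a shared source, gave 2498 in XX, 2565 in XY, 6 and 12 for the sexes in KO and WT, and 1 for the difference between the KO effects, and let no member pass a sex contrast. 5 of 12 arrays correlated best with arrays of their own number.

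Of 440 recomputed member gains, 429 moved by less than the within-group SD and 11 by more, and none changed sign. Of the 11, 7 came from averaging probe sets, with Lrrtm4 at 1.76 in XX and 1.77 in XY, Sema3d at 1.48 and 1.09, Tgm2 at 1.85 and 1.96 and Ppargc1a at 2.27 in XX. The other 4 came in XY with the Gapdh covariate, the widest of them Nefm at 1.84. With array weights Nefm passed, as 1191 of all genes did, between WT XY and WT XX, at -0.94 ± 0.25 (adjusted p = 0.0401). Weak or dim probe sets, such as 1455937_at of Lrrtm4, limit what can be said of single transcripts.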

Other observations

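Genes next to the 10 on the chromosome, by the RefSeq order of protein-coding genes, were looked up after the values of the members had been seen. Of 20 neighbours 17 were measured, and 4 were higher in KO in XX, 4 in XY and 3 in both sexes (adjusted p under 0.05, limma). Over all genes these shares were 8.3%, 6.56% and 4.58%. Trpd52l3, beside Il33, fell in XX, at -0.49 (adjusted p = 0.0379), and differed by -0.18 in XY (adjusted p = 0.494). Adamtsl4, a matrix gene beside Ecm1 on chromosome 3, rose by 2.10 in XX (adjusted p = 1.97e-05) and by 2.66 in XY (adjusted p = 2.01e-06), at ranks 16 and 4 of all gains. The others higher in both sexes were Nefl, beside Nefm on chromosome 14, and Sema3a, beside Sema3d on chromosome 5. Both are relatives of their member and were already counted in the lists above. On the other side, Tars2 next to Ecm1 differed by 0.18 (adjusted p = 0.449) and 0.30 (adjusted p = 0.201), and Adam7 next to Nefm by -0.05 (adjusted p = 0.867) and 0.26 (adjusted p = 0.287). Both neighbours of Ngp, Ptpn23 and Klhl18, and both of Efemp1, Ccdc85a and Pnpt1, did not pass in either sex. With 17 neighbours and lists chosen after the fact, no test was made of whether neighbours rose more often than other genes.

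A pair of genes picked out after the ranks were seen stood high in one sex and lower in the other. Olfm4, a granule and epithelial glycoprotein gene, differed by 2.11 in XX (rank 15) and 0.45 in XY (rank 1520), as Ngp did with ranks 10 and 378. Bmp5, a signalling ligand gene, stood at 1.23 in XX (rank 173) and 2.24 in XY (rank 16), as Efemp1 did with ranks 79 and 8. The KO effect in XY minus that in XX was -1.65 ± 0.47 for Olfm4 and 1.01 ± 0.55 for Bmp5, given without a test because these values picked the genes.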
